A study of Mus musculus with 6 samples.

Results

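This section describes 9 receptors for chemokines and other chemoattractants in mouse macrophages that carried a small interfering RNA (siRNA) against the chemokine receptor Cxcr4. The members are Ccr1, Ccr2, Ccr3, Ccr7, Ccrl2, Cx3cr1, Cxcr3, Fpr1 and Fpr2. They were chosen by gene symbol, and each of the 9 had 1 row among the 54532 genes of every deposited table. The cells of both groups were macrophages derived from bone marrow of the C57BL/6 strain, and both groups had been given lipopolysaccharide (LPS), a bacterial cell-wall component, at 100 ng/ml for 12 hours. The groups differed in the siRNA they were transfected with: siCXCR4 against Cxcr4 (3 samples) or siNC, a negative control (3 samples). The table labelled siNC replicate 3 repeated siNC replicate 2 as whole counts, gene for gene over the 19072 genes with reads, so these tables differed by less than sampling noise and count as 1 sample. The comparison therefore rests on 2 siNC and 3 siCXCR4 libraries. No untreated cells were among the samples, so nothing here measures the response to LPS itself, and the siRNA lowers a transcript rather than removing the gene. Whether the replicates were separate cultures or animals is not in the labels, so every p-value rests on a spread between samples that may be technical only.

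Chemokine receptors are proteins with 7 membrane-spanning segments that couple mostly to inhibitory G proteins and steer leukocytes along gradients of secreted ligands. CXCR4, the receptor for CXCL12, retains cells in the bone marrow. CCR1 binds inflammatory ligands such as CCL3 and CCL5, CCR2 binds CCL2 and brings monocytes out of the marrow, CCR3 is the eotaxin receptor of eosinophils, CCR7 guides dendritic cells to lymph nodes through CCL19 and CCL21, CXCR3 binds the interferon-induced ligands CXCL9, CXCL10 and CXCL11, and CX3CR1 binds fractalkine on patrolling monocytes and tissue macrophages. FPR1 and FPR2 sense formylated peptides of bacteria and mitochondria, and FPR2 also binds annexin A1 and serum amyloid A. CCRL2 is an atypical receptor that binds chemerin and presents it to neighbouring cells without the usual G-protein signal.

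The members fall into genomic neighbourhoods, given here in GRCm38 coordinates. On chromosome 9 lie 5 of them. Ccr1 (123962124 to 123968692, minus strand), Ccr3 (124021972 to 124031689, plus strand) and Ccr2 (124101950 to 124113557, plus strand) form a cluster of 151434 bases, while Ccrl2 (111054486 to 111057519) and Cx3cr1 (119901616 to 120069879), both on the minus strand, stand apart. Fpr1 (17876471 to 17883940, minus strand) and Fpr2 (17887824 to 17893952, plus strand) are a divergent pair on chromosome 17 with starts 3884 bases apart. Ccr7 lies on chromosome 11 (99144196 to 99155077) and Cxcr3 on chromosome X (101731535 to 101734269), both on the minus strand. Values count reads over a gene's exons as a whole.

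The promoters of the 3 most abundant members are shown, the formyl peptide pair because its neighbouring start sites face apart and Ccrl2 because it had the highest mean level. Each run is 300 bases of RefSeq sequence on GRCm38.p6, from 250 bases before the start site to 50 after it, 5′ to 3′ on the gene's own strand. Capitals mark a match to the NF-kB consensus.
Ccrl2 promoter, chr9:111057469-111057768, minus strand: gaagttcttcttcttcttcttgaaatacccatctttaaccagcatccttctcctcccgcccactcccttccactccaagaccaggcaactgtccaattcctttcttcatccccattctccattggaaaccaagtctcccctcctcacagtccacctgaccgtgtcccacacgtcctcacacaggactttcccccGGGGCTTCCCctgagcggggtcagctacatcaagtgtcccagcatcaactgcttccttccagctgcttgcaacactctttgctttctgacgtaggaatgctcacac
Fpr1 promoter, chr17:17883890-17884189, minus strand: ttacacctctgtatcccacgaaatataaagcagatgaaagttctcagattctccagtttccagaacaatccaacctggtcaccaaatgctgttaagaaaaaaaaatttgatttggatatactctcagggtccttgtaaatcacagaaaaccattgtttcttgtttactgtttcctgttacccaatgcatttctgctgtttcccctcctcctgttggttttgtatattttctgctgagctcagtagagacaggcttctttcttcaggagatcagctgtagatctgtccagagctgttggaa
Fpr2 promoter, chr17:17887574-17887873, plus strand: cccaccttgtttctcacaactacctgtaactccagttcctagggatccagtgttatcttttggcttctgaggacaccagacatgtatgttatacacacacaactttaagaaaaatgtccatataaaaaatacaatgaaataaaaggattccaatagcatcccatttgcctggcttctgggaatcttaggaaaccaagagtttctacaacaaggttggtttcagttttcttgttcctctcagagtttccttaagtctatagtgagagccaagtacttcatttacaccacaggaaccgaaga
Both strands were searched for the NF-kB consensus, AP-1 (TGANTCA), C/EBP (TTGCNNAA), PU.1 (GAGGAAG) and the IRF element, motifs chosen after the sequences had been viewed, and no matches overlapped. The Ccrl2 promoter held 1 match, GGGGCTTCCC, to the NF-kB consensus, which 8.49% of 32544 promoters of this length hold. The Fpr1 and Fpr2 promoters held none of the 5 motifs. Of the 8 members with a promoter in the table, Ccr1 (GGGAGGCTCC) and Ccr3 (GGAAATTCCC) also held an NF-kB match. Ccr3 held 1 AP-1 match and Cxcr3 1 PU.1 match besides, motifs found in 7.79% and 13.4% of promoters. A match describes letters and is not a site of binding.

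Levels are FPKM, reads scaled to gene length and library size, so they may be compared between genes. Ccrl2, Fpr2 and Fpr1 made up most of the summed level of the 9 members, between 95.2% and 96.0% in each library. Ccrl2 lay between 215 and 242 FPKM over the 5 libraries, Fpr2 between 179 and 233, and Fpr1 between 125 and 165. Ccr1 followed at 20.5 to 21.8 FPKM, below Cxcr4 itself, which had 31.1 to 42.1 FPKM. Ccr7 lay at 3.54 to 4.36 FPKM. The other 4 members were under 1 FPKM in each of the 5 libraries: Cxcr3 (0.318 to 0.550), Ccr2 (0.263 to 0.348), Ccr3 (0.0957 to 0.210) and Cx3cr1 (0.0115 to 0.112). Neighbours in this order whose ranges overlapped were Ccrl2 with Fpr2, Cxcr3 with Ccr2, and Ccr3 with Cx3cr1. The remaining neighbours did not overlap in any library.

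**Figure D1:**
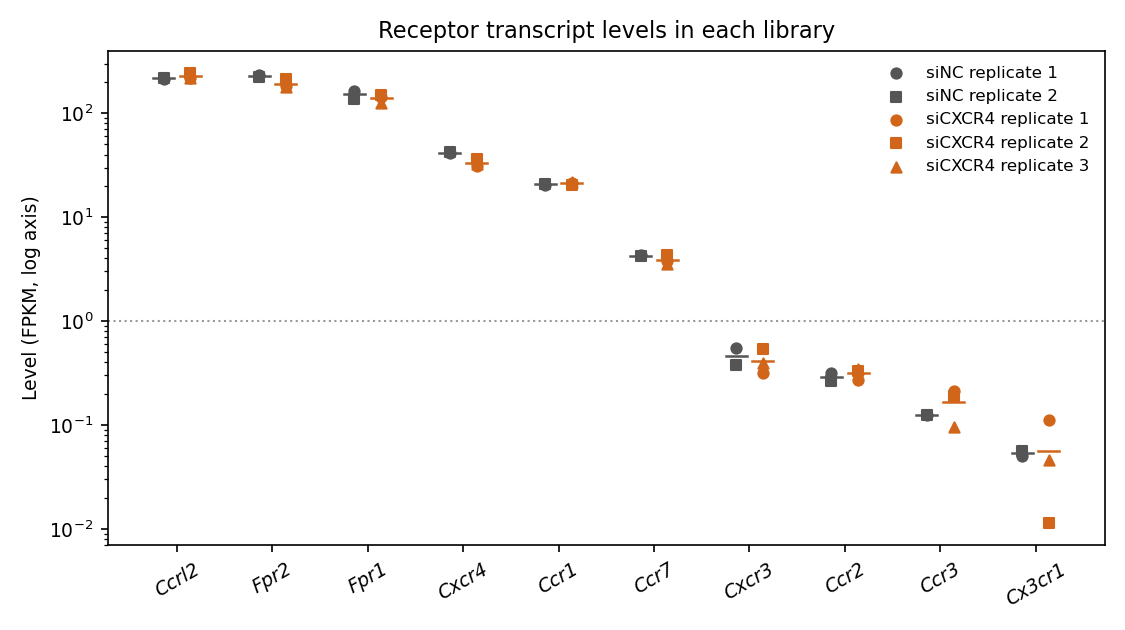
FPKM (log axis) of the 9 members and Cxcr4 in each library, siNC in grey and siCXCR4 in orange, with a short line at each group's mean and a dotted line at 1 FPKM. Ccrl2, Fpr2 and Fpr1 lie above 100 FPKM in each library, and Cxcr3, Ccr2, Ccr3 and Cx3cr1 lie below 1 FPKM.

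Per library, 18890751 to 21780840 reads fell in genes. Of all genes, 9943 averaged 1 FPKM or more and were tested with limma on log2(FPKM + 1), and 5 of the 9 members were among them: Ccrl2, Fpr2, Fpr1, Ccr1 and Ccr7. No gene had an adjusted p under 0.05 (0.00%, smallest adjusted p = 0.389), and 929 genes (9.34%) had an unadjusted p under 0.05. On whole reads worked back from the FPKM, edgeR called 17 of 12794 genes (0.133%) and DESeq2 called 28 of 8397 (0.333%), with no member and not Cxcr4 among either set. Without siCXCR4 replicate 2, edgeR called 312 of 12750 genes, and without siCXCR4 replicate 1 it called 0 of 12633. Both fits were chosen after the data were seen. The siRNA target is the reference for all that follows. Cxcr4 had 41.3 and 42.1 FPKM in siNC and 31.1, 36.2 and 32.7 FPKM in siCXCR4, a ratio of means of 0.800. The groups did not overlap, and siCXCR4 replicate 2 lay nearest to siNC. On the log2 scale Cxcr4 differed by -0.32 (SE 0.0704; 95% limits -0.48 and -0.15; adjusted p = 0.457, limma), short of the threshold.

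The question was whether another receptor is higher where Cxcr4 is lower. None of the 9 members was higher in all 3 siCXCR4 libraries than in both siNC libraries, against 17.9% of all genes tested. The shares of all genes given here cover those averaging 1 FPKM or more, and only 5 of the 9 members were among them. Fpr2 was the only member whose groups did not overlap, and it lay on the other side, lower in siCXCR4, as did 9.92% of all genes tested. These counts rested on single libraries: with any 1 of the 5 left out, 1 member was higher without overlap (Ccr2, Ccrl2, Ccr1 or Ccr3, depending on the library), and from 1 to 3 were lower, Fpr2 each time. Fewer libraries make non-overlap easier for any gene, and a gene without overlap in all 5 stays so. The share of all genes in the smaller sets was not worked out, so these counts show nothing particular to the members. Among the 5 tested members, 2 had a log2 fold change above 0 and 3 below, against 56.4% of all genes above 0. With FPKM scaled to reads in genes only, a setting added after the data were seen, 46.3% of all genes lay above 0. No tested member passed the threshold.

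**Figure D2:**
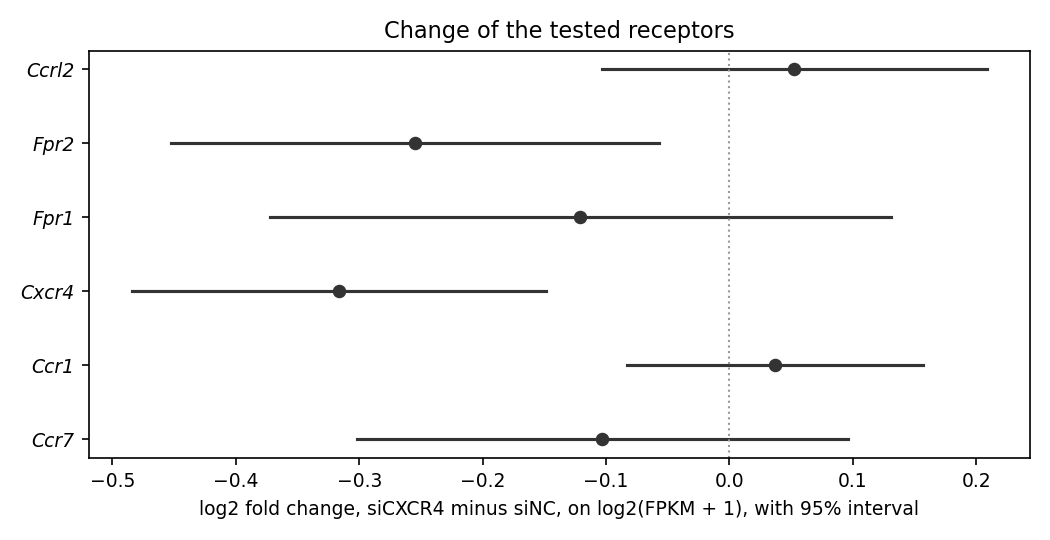
Log2 fold change of siCXCR4 against siNC in log2(FPKM + 1) of the 5 tested members and Cxcr4, points being estimates and lines 95% intervals from limma. The intervals of Fpr2 and Cxcr4 lie below 0, and those of Ccrl2, Fpr1, Ccr1 and Ccr7 include 0.

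Fpr2, the lower-affinity receptor for formylated peptides, had 233 and 224 FPKM in siNC and 183, 213 and 179 FPKM in siCXCR4, on 4448 to 6668 reads per library. Every siCXCR4 library was lower than either siNC library, and replicate 2 came closest, as it did for Cxcr4. The mean was 229 ± 6.64 FPKM (SD, n = 2) in siNC and 192 ± 18.4 FPKM (SD, n = 3) in siCXCR4, 16.0% lower, a difference of 2.36 times the pooled SD of the libraries. In limma its log2 fold change was -0.25 (SE 0.0829, 95% interval -0.45 to -0.06; unadjusted p = 0.0190, adjusted p = 0.501). An exact two-sided permutation test gave p = 0.2, where 0.1 is the smallest that 2 libraries against 3 allow. On whole reads the adjusted p of Fpr2 was 0.178 by edgeR and 0.116 by DESeq2. Without siCXCR4 replicate 2, a fit chosen after the data were seen, edgeR's adjusted p for Fpr2 was 0.00109. Fpr2 was then 1 of 312 genes called among 12750 tested. Over the alternatives of all tools the adjusted p of Fpr2 ran from 0.00109 to 0.924. In bulk RNA a lower level in each cell and fewer cells that carry the transcript cannot be told apart.

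Part of the Fpr2 sequence is not its own, which bears on its count. Of all windows of 50 bases in its annotated transcripts, 31.4% also occurred in transcripts of another gene, and 12.3% of windows of 100 bases did. The other gene was chiefly Gm5966, a symbol not among the 54532 genes, so it has no values here. How reads that match several places were handled, and their length, is not stated in the labels or headers, so the Fpr2 level is uncertain to that extent. Fpr3, a paralog whose annotated span overlaps Fpr2, had 5.65 and 2.60 FPKM in siNC and 1.38, 1.26 and 2.72 FPKM in siCXCR4, on 31 to 158 reads. The ratio of means of Fpr3 was 0.433 and its groups overlapped. The unadjusted p was 0.0738 by limma (adjusted p = 0.561), 0.0420 by edgeR (adjusted p = 0.490) and 0.00134 by DESeq2, which gave no adjusted p. Fpr3 was looked at because of this overlap, after the values were seen.

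Fpr1, the high-affinity formyl peptide receptor, had overlapping groups. Its levels were 165 and 138 FPKM in siNC and 143, 150 and 125 FPKM in siCXCR4, so siNC replicate 2 lay below siCXCR4 replicates 1 and 2. The mean was 152 ± 18.8 FPKM (SD, n = 2) against 139 ± 12.7 FPKM (SD, n = 3). In limma its log2 fold change was -0.12 (SE 0.104, 95% interval -0.37 to 0.13; adjusted p = 0.726). Leaving out siNC replicate 1 turned the limma value to 0.0054, so its direction in limma rested on that library. By edgeR the value was then -0.0092. Only 0.0784% of the 50-base windows of Fpr1 occurred in another gene, namely Fpr2. The ratio of Fpr1 to Fpr2 was 0.707 and 0.618 in siNC and 0.778, 0.704 and 0.698 in siCXCR4, with overlapping groups.

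Ccrl2, the chemerin-presenting receptor, was alike in 4 of 5 libraries. It had 215 and 219 FPKM in siNC and 218, 242 and 216 FPKM in siCXCR4, with only siCXCR4 replicate 2 apart from the rest. In limma its log2 fold change was 0.05 (SE 0.0654, 95% interval -0.10 to 0.21; adjusted p = 0.815). Without siCXCR4 replicate 2, edgeR placed it at -0.017. The order of the top pair differed between the groups, a description chosen after the values were seen: Fpr2 stood above Ccrl2 in both siNC libraries, at ratios of 1.08 and 1.02, and below it in all 3 siCXCR4 libraries, at 0.842, 0.879 and 0.829. A ratio within a library does not depend on its scaling, and no test was run on this one.

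Ccr1, the receptor for CCL3, CCL5 and their kin, was the steadiest of the tested members. It had 20.5 and 20.8 FPKM in siNC and 21.4, 20.5 and 21.8 FPKM in siCXCR4, on 1124 to 1318 reads per library. The lowest value of all lay in siCXCR4 replicate 2 and the highest in siCXCR4 replicate 3. Its log2 fold change was 0.04 (SE 0.0503, 95% interval -0.08 to 0.16, adjusted p = 0.831 by limma), and the interval corresponds to a ratio of 0.944 to 1.12 on the FPKM + 1 scale. The level of Ccr1 relative to Cxcr4 was 0.497 and 0.492 in siNC and 0.687, 0.565 and 0.666 in siCXCR4. For Ccrl2 this ratio was 5.22 and 5.19 against 7.01, 6.69 and 6.61. For Fpr2 it was 5.65 and 5.31 against 5.90, 5.88 and 5.48, and for Fpr1 4.00 and 3.28 against 4.59, 4.14 and 3.82. The groups overlapped for Fpr2 and Fpr1 and not for Ccr1 and Ccrl2, and all 4 ratios share the siRNA target as denominator. Cxcr4 itself did not overlap between the groups, so a gene that holds steady separates in this ratio by construction. The ratios are therefore no sign of a rise in Ccr1 or Ccrl2.

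Ccr7, the lymph-node homing receptor, had 4.29 and 4.18 FPKM in siNC and 3.76, 4.36 and 3.54 FPKM in siCXCR4, on 134 to 187 reads per library. The highest value lay in siCXCR4 replicate 2, above both siNC libraries, and the lowest pair in the other siCXCR4 libraries. Its log2 fold change was -0.10 (SE 0.0833, 95% interval -0.30 to 0.10, adjusted p = 0.710 by limma). With siCXCR4 replicate 2 left out, the groups of Ccr7 did not overlap and the value was lower in siCXCR4, still short of the threshold. Non-overlap is easier for any gene with fewer libraries.

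**Figure D3:**
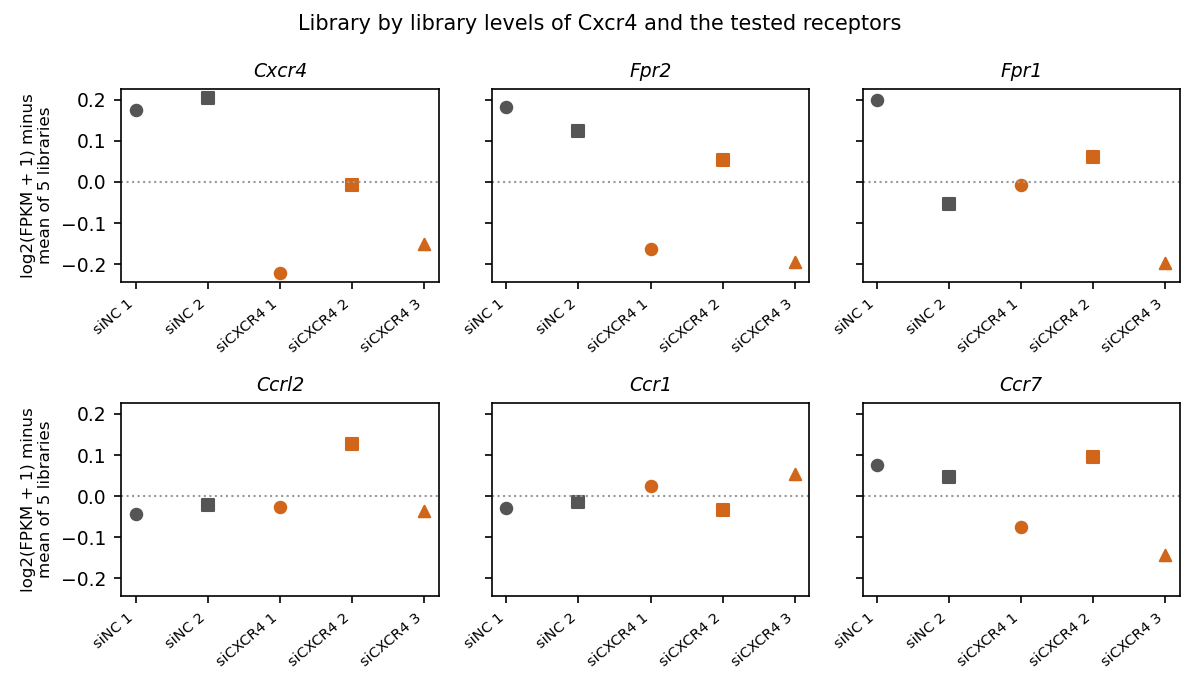
Log2(FPKM + 1) of Cxcr4 and the 5 tested members in each library, as the difference from that gene's mean over the 5 libraries, siNC in grey and siCXCR4 in orange. Cxcr4 and Fpr2 have both siNC libraries above the 3 siCXCR4 libraries, and siCXCR4 replicate 2 is the highest siCXCR4 library for Cxcr4, Fpr2, Fpr1, Ccrl2 and Ccr7.

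The receptors of circulating monocytes, T cells and eosinophils rested on few reads. Ccr2 had 47 and 35 reads in siNC and 40, 43 and 45 in siCXCR4. Cxcr3 had 21 and 13 reads in siNC and 12, 18 and 13 in siCXCR4. Both genes had overlapping groups. Ccr3 had 9 and 8 reads in siNC and 15, 12 and 6 in siCXCR4, so siCXCR4 replicate 3 had the fewest and the other siCXCR4 libraries the most. Cx3cr1 had 5 and 5 reads in siNC and 11, 1 and 4 in siCXCR4, the widest scatter of the 4 relative to its mean.

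These 4 genes lay under the filter of the limma test. In edgeR the adjusted p was 0.936 for Ccr2, 0.852 for Ccr3 and 0.920 for Cxcr3, and Cx3cr1 did not pass edgeR's filter. In limma without a filter it was 0.924 for Ccr2, 0.846 for Ccr3, 0.983 for Cx3cr1 and 0.911 for Cxcr3. Their summed reads are given with an exact conditional 95% interval that covers counting error only. Per read of the library, the ratio of siCXCR4 to siNC was 1.06 for Ccr2 (0.797 to 1.42), 1.32 for Ccr3 (0.713 to 2.52), 1.09 for Cx3cr1 (0.464 to 2.68) and 0.859 for Cxcr3 (0.535 to 1.39). Each interval includes 1. Those of Ccr3 and Cx3cr1 also include a 2-fold higher level, and that of Cx3cr1 a 2-fold lower one. Exact two-sided permutation tests on log2(FPKM + 1) gave p = 0.5 for Ccr2, 0.4 for Ccr3, 1 for Cx3cr1 and 0.6 for Cxcr3. The annotated span of Cx3cr1 overlaps 9 other genes, the most abundant of them Wdr48 with a mean of 986 reads. The labels and headers do not state how reads in overlapping genes were assigned, or whether strand was used. Of the Cx3cr1 windows of 50 bases, 1.06% occurred in other genes. Of the Ccr2 windows of 50 bases, 1.91% occurred in other genes, and for Ccr1, Ccr3, Ccr7, Ccrl2 and Cxcr3 there were 0.

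**Figure D4:**
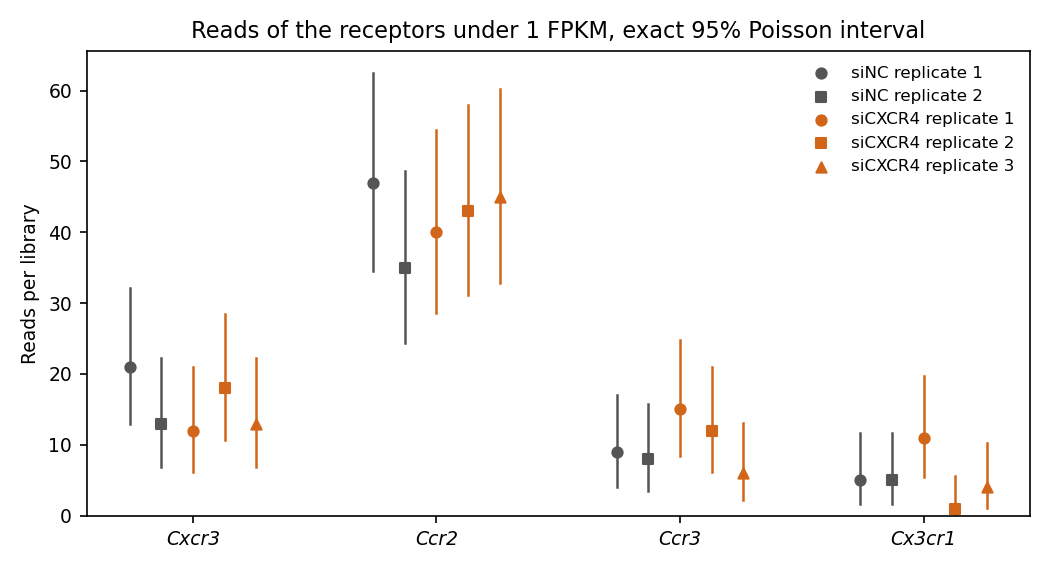
Whole reads per library of the 4 members under 1 FPKM, siNC in grey and siCXCR4 in orange, points being counts and lines exact 95% Poisson intervals of counting error. Ccr2 has 35 to 47 reads and Cx3cr1 1 to 11, and within each gene the intervals of the groups overlap.

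Summed over the 9 members, the level was 640 and 607 FPKM in siNC and 570, 631 and 547 FPKM in siCXCR4. The groups overlapped through siCXCR4 replicate 2, and the sum is set mainly by Ccrl2, Fpr2 and Fpr1. Over the 6 classical chemokine receptors alone (Ccr1, Ccr2, Ccr3, Ccr7, Cx3cr1 and Cxcr3) the sum was 25.85 and 25.75 FPKM in siNC. In siCXCR4 it was 26.03, 25.89 and 26.22 FPKM, each narrowly above both siNC libraries. The FPKM denominators lower siNC more, as described below, and this difference was not tested. Most of this sum is Ccr1. Cxcr4 was 6.06% and 6.50% of the summed level of the 10 receptors in siNC, and 5.17%, 5.43% and 5.65% in siCXCR4.

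Ligands of these receptors were described from a list of 20 genes, of which 15 were tested. None had an adjusted p under 0.05, 9 had a log2 fold change above 0 and 6 below, and the median was 0.02 against 0.01 over all genes tested. An unadjusted p under 0.05 was met by 1 gene higher in siCXCR4, Ccl8, and 0 lower, against 5.80% and 3.54% of all genes. Ccl8, a ligand that monocytes and macrophages secrete, averaged 2.58 ± 0.139 FPKM (SD) in the 2 siNC libraries and 3.44 ± 0.448 FPKM in the 3 siCXCR4 libraries, the order and the error of each pair of values that follows. Its adjusted p was 0.494 by limma. Ccl2, the main CCR2 ligand, was at 31.0 ± 1.39 and 34.1 ± 2.36 FPKM and overlapped between the groups. The ligands of FPR2 lay on either side: Anxa1, the annexin that dampens inflammation, was at 176 ± 1.96 and 194 ± 11.5 FPKM, and Saa3, a serum amyloid A of macrophages, at 1195 ± 59.6 and 1074 ± 82.4 FPKM. In both, the groups did not overlap, and neither passed the test (adjusted p = 0.550 and 0.586 by limma). Of the 15 tested ligands, 2 were higher and 1 lower without overlap, against 17.9% and 9.92% of all genes tested. In edgeR, with 15 ligands tested, an unadjusted p under 0.05 was met by 0 higher and 1 lower, against 4.46% and 5.27% of all genes. The 1 lower was Saa3 (adjusted p = 0.425 by edgeR).

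Ligand and receptor levels were far apart for several members. Ccl5, the most abundant ligand, averaged 3964 ± 86.8 and 3950 ± 233 FPKM, beside Ccr1 at 20.5 to 21.8 FPKM. Cxcl10, named with the genes below after the values were seen, was at 570 ± 54.2 and 575 ± 71.0 FPKM beside a CXCR3 transcript under 1 FPKM. The CCR7 ligands Ccl19 and Ccl21a, and the eotaxin Ccl11, had 0 reads in each of the 5 libraries. Rarres2, which encodes the CCRL2 ligand chemerin, had at most 2 reads, beside Ccrl2 among the most abundant receptors. Cx3cl1, the CX3CR1 ligand, had at most 13 reads.

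Of 25 further chemokine and chemoattractant receptors, 5 were tested in limma, 3 above 0 and 2 below, and none had an adjusted p, or an unadjusted p, under 0.05. In edgeR, whose filter let 11 through, an unadjusted p under 0.05 was met by 2 higher and 1 lower, against 4.46% and 5.27% of all genes, and 0 had an adjusted p under 0.05. These 3 are named after their values were seen. Xcr1, a receptor of cross-presenting dendritic cells, had 14 and 23 reads in siNC and 39, 32 and 33 in siCXCR4, each siCXCR4 library above both siNC libraries. It stayed under 1 FPKM in each library, and its edgeR p was 0.0103 (adjusted p = 0.353). Ltb4r1, a leukotriene B4 receptor, had 13 and 11 reads in siNC and 6, 3 and 3 in siCXCR4 (adjusted p = 0.364 by edgeR). The third was C3ar1. Ptafr, the receptor for platelet-activating factor, was the most abundant of them (266 ± 10.3 and 274 ± 4.71 FPKM). C3ar1, the receptor for complement C3a, was at 93.3 ± 5.40 and 106 ± 8.57 FPKM with overlapping groups (adjusted p = 0.538 by limma and 0.431 by edgeR). Cmklr1, the signalling receptor for chemerin, was at 100.0 ± 0.573 and 93.1 ± 4.70 FPKM, with each siCXCR4 library below both siNC libraries (adjusted p = 0.615 by limma). Of the 5 tested in limma, 0 were higher and 1 lower without overlap, against 17.9% and 9.92% of all genes tested. C5ar1, the C5a receptor, was at 7.88 ± 0.810 and 7.44 ± 0.364 FPKM. Ackr3, the other receptor for CXCL12, had 0 reads in each of the 5 libraries, as had Ccr6, Ccr8 and Ackr1, named after their values were seen.

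Signalling and desensitization genes shared by these receptors were described from a list of 23, of which 21 were tested. None had an adjusted p under 0.05, 15 were above 0 and 6 below, and the median log2 fold change was 0.07 against 0.01 over all genes. An unadjusted p under 0.05 was met in limma by 2 genes higher in siCXCR4 and 0 lower, against 5.80% and 3.54% of all genes, and 56.4% of all genes lay above 0. In edgeR, with 22 of the list tested, it was met by 2 higher and 1 lower, against 4.46% and 5.27% of all genes. Again 0 had an adjusted p under 0.05. The 1 lower, named after the values were seen, was Arrb1, at 3.41 ± 0.0439 and 2.95 ± 0.311 FPKM (adjusted p = 0.383 by edgeR). Rgs1, which shortens chemokine receptor signals by speeding the turnoff of G proteins, had 17.6 and 21.0 FPKM in siNC and 25.1, 23.6 and 23.3 FPKM in siCXCR4. Each siCXCR4 library lay above both siNC libraries, at 0.30 on the log2 scale (SE 0.0804; adjusted p = 0.486 by limma, 0.142 by edgeR). Rac1, a GTPase of cell movement, was at 62.2 ± 2.58 and 68.3 ± 1.21 FPKM (adjusted p = 0.512 by limma). Rac2, its blood-cell relative, was at 157 ± 8.89 and 171 ± 3.97 FPKM, and Gnai2, the main inhibitory G protein subunit, at 131 ± 9.77 and 146 ± 6.39 FPKM, both without overlap. Of the 21 tested genes, 8 were higher and 1 lower without overlap, against 17.9% and 9.92% of all genes tested.

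Genes whose pattern over the 5 libraries was most like a tested member were found by the root mean square difference of log2 values, each centred on its own mean. For Fpr2 these were Tfec, a transcription factor of the myeloid lineage (difference 0.0258), and Gm10221 (0.0264), beside a spread of Fpr2 itself of 0.152. For Fpr1 they were 1700021F05Rik (0.0180) and Cox5b (0.0185), and for Ccrl2 Ube2b (0.00854) and Zfp637 (0.0140). For Ccr1 they were Arhgap11a (0.00515) and Mier1 (0.00607), and for Ccr7 Pfdn6 (0.00570) and Pomp (0.00802). With 5 libraries many genes lie this close: 2089 genes lay within 0.05 of Ccr1, which hardly varied, and 40 within 0.05 of Fpr2.

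The cells carried macrophage markers in both groups. Summed over Adgre1, Csf1r, Cd68, Lyz2, Itgam and Mertk, the level was 3659 to 3841 FPKM in siNC and 3512 to 3851 FPKM in siCXCR4. Markers of the cells best known for CXCR3, CCR3 and CCR7 were near 0: 5 T and NK cell markers summed to at most 0.840 FPKM in any library, 5 dendritic cell markers to at most 1.23, and 5 eosinophil and mast cell markers to at most 2.08. The 6 neutrophil markers, which matter for Fpr1 and Fpr2, summed to 37.0 to 38.0 FPKM in siNC and 34.6 to 42.6 FPKM in siCXCR4. Most of that was Ngp, while the neutrophil markers Ly6g, Mpo and Elane lay under 1 FPKM in each library. The 4 monocyte markers summed to 7.26 to 9.13 FPKM in siNC and 7.48 to 8.42 FPKM in siCXCR4. These ranges overlapped between the groups for macrophage, neutrophil and monocyte markers, and for dendritic cell markers they did not (0.889 to 0.987 against 1.13 to 1.23 FPKM). That difference came from Xcr1, the receptor named above, and Clec9a, at log2 fold changes of 0.21 and 0.07. Zbtb46 (-0.03) and Flt3 (-0.01) lay on the other side with overlapping groups, and Siglech was at 0. Each of these markers stayed under 1 FPKM. The part of other cell types in the receptor levels was not tested.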

How the data were processed

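Total RNA of the macrophages was sequenced, and each sample has 1 deposited table of genes. For 5 samples the authors deposited FPKM, or RPKM, values. Multiplied by gene length they gave whole reads (tolerance 0.05) in 100% of cases. For siNC replicate 3 the authors deposited read counts. The submitters' processing notes name mm9, yet 98.3% of the genes found in the GRCm38 annotation sat at identical positions. No label or header names an aligner or counter.

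Of several rows with 1 symbol (102 symbols), the row of highest mean was kept. siCXCR4 was compared with siNC by limma 3.58.1 in R 4.3.3 (trend, robust) on log2(FPKM + 1), for genes averaging 1 FPKM or more (two-sided; Benjamini-Hochberg over all genes; threshold 0.05). On whole reads, edgeR 4.0.16 (TMM, quasi-likelihood, robust) and DESeq2 1.42.0 were alternatives. edgeR's robust option was turned on after a fit without it had been seen. The FPKM denominators also counted reads outside the listed genes, 2.80% and 2.15% of them in siNC and from 0.00033% to 1.37% in siCXCR4, which lowers FPKM more in siNC. The tests were tested on simulated data of this size with 50 planted genes per fold: limma recovered 16% at 1.25-fold and 76% at 1.5-fold, and edgeR 44% and 88%. Of 147 limma calls 11 were on genes not planted, and of 187 edgeR calls 22, a larger share than the threshold of 0.05 allows for. Named were the 9 members, Cxcr4, the 4 genes of lowest p and the most abundant gene of each list, and the 2 genes most like each tested member. The members and lists were chosen with earlier results of these data known. Intervals of reads cover counting error only, as PCR copies are not told apart. The values of 1 listed receptor are not reported here.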

Additional observations from a re-analysis of the deposited data

How the results depend on the processing

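Cxcr4, Fpr2 and Ccr1 kept their direction in 22 of 22 alternatives and Ccr7 in 21 of 21. These tallies include settings that could not change the estimate. Other filters, limma without trend or robust estimate, and edgeR without its robust estimate alter only the test. The replicate block gave the same estimate as leaving out siCXCR4 replicate 3. Ccr1 was as low as 0.00066, by edgeR without siCXCR4 replicate 3. By limma, Fpr1 lay at 0.0054 without siNC replicate 1 (range -0.25 to 0.0054 over single libraries left out). By edgeR it lay at -0.0092 without siNC replicate 1 and at -0.26 without siNC replicate 2. Ccrl2 lay at -0.017 by edgeR without siCXCR4 replicate 2. That same fit took Fpr2 (-0.35) and Cxcr4 (-0.40) past the threshold, which no other alternative did; the cause was not tested. Without its robust estimate, edgeR gave adjusted p = 0.237 for Fpr2 and 0.133 for Cxcr4.

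The number of genes called was 0 by limma, 17 by edgeR, 28 by DESeq2, 3 by edgeR without its robust estimate, and 6 with siNC replicate 3 as a separate replicate. With single libraries left out it was 0 to 1 by limma (1 without siCXCR4 replicate 2). By edgeR it was 5 without siNC replicate 1, 20 without siNC replicate 2, 0 without siCXCR4 replicate 1, 312 without siCXCR4 replicate 2 and 3 without siCXCR4 replicate 3. The edgeR fits without the robust estimate or a library, and the counts of groups without overlap, were chosen after seeing the data.

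The 4 receptors on few reads moved most, on the log2 scale. On log2(FPKM + 1) they were at 0.030 (Ccr2), 0.050 (Ccr3), 0.0035 (Cx3cr1) and -0.050 (Cxcr3). Adding 1 to values under 1 FPKM shrinks such differences, and edgeR, DESeq2 and a pseudocount of 0.1 shrink them less. The moves are therefore partly a change of scale. Ccr2 was at 0.10 by edgeR with or without its robust estimate, 0.11 by DESeq2 and 0.10 with a pseudocount of 0.1, and by edgeR at 0.24 without siNC replicate 1, -0.016 without siNC replicate 2 and 0.20 without siCXCR4 replicate 1. Ccr3 was at 0.40 by edgeR (both options) and DESeq2, and at 0.21 with the pseudocount of 0.1. By edgeR it was at 0.40 without siNC replicate 1 or without siNC replicate 2, and at 0.66 without siCXCR4 replicate 3. Cx3cr1 was at 0.092 by DESeq2 and 0.20 by edgeR without siNC replicate 2. Cxcr3 was at -0.20 by edgeR (both options), -0.18 by DESeq2, and by edgeR 0.10 without siNC replicate 1, -0.42 without siNC replicate 2 or siCXCR4 replicate 2, and -0.17 without siCXCR4 replicate 3.

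With any 1 library left out, 1 member was higher in siCXCR4 without overlap, a different one in most cases: Ccr2 (without siNC replicate 1 or siCXCR4 replicate 1), Ccrl2 (siNC replicate 2), Ccr1 (siCXCR4 replicate 2) and Ccr3 (siCXCR4 replicate 3). From 1 to 3 were lower, Fpr2 each time, joined by Cxcr3 and Fpr1 without siNC replicate 2, Cx3cr1 without siCXCR4 replicate 1 and Ccr7 without siCXCR4 replicate 2. Non-overlap is easier for any gene in these smaller sets, and the share of all genes there was not worked out.

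With the replicate block Fpr2 was at -0.21 (adjusted p = 0.924, limma) and 0 genes were called. Same-numbered libraries correlated at -0.04 and -0.11 across genes. With only 2 distinct siNC libraries, each such value is the mirror image of that for the other siNC library (0.04 and 0.11). These correlations therefore cannot decide whether libraries were paired, and the number was not taken as a pairing.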
